A study of Mus musculus with 20 samples.

Results

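Psat1, the aminotransferase of serine synthesis, was selected from the comparison of the Plod1-/- with the WT aortas under Ang II, where it ranked near the top by p-value, and 8 genes of its pathway and of its known regulation were set beside it to see whether they followed. The 9 genes, of 43422 in the files, were Phgdh, Psat1 and Psph of serine synthesis, Shmt1, Shmt2, Mthfd2 and Mthfd1l of one-carbon metabolism, Asns of asparagine synthesis and the transcription factor gene Atf4. RNA was sequenced from the abdominal aortas of 20 mice in 4 groups of 5, and expression was given as FPKM, sequenced fragments scaled to transcript length and to library size. The groups were WT mice with saline, WT mice with Ang II, mice with the lysyl hydroxylase 1 gene Plod1 knocked out (Plod1-/-) with saline, and Plod1-/- mice with Ang II. The labels gave strain C57BL/6 and an age of 6 months for all groups, whereas the study's methods gave male mice on a C57Bl/6NCrl background at a younger age. Ang II was given at 1000 ng/kg per minute from a subcutaneous osmotic pump, and aortas were taken after 14 days. The samples were whole aortic tissue, so each level is that of a mixture of cells.

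Mammalian cells make serine from the glycolytic intermediate 3-phosphoglycerate in a short chain of steps. Serine becomes glycine when its side chain carbon passes to folate, which carries that carbon to the synthesis of thymidylate, purines and methionine. The folate steps exist in parallel in the cytosol and in the mitochondria. ATF4 is a basic leucine zipper factor whose protein accumulates when translation initiation factor eIF2 is phosphorylated, largely through control of translation, and the serine synthesis, mitochondrial folate and asparagine synthetase genes are among its textbook targets.

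The C/EBP-ATF element through which ATF4 acts on Asns was looked for in RefSeq promoter windows of GRCm38.p6, each 300 bases long. All 9 genes had a window, and Psat1 had a pair of them. Asns is shown because it held the element, Psat1 because it was the selected gene, here with its upstream window, and Phgdh because its enzyme feeds that of Psat1. Neither Psat1 window nor that of Phgdh held the element. The lines run 5′ to 3′ on the strand of the gene, and capitals mark the element.
Asns, chr6:7693160-7693459, minus strand: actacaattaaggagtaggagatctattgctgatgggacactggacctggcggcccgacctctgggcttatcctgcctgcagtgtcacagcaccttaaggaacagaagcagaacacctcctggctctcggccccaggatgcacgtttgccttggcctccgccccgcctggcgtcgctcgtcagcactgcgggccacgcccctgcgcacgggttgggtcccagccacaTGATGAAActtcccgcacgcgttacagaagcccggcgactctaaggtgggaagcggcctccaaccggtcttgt
Psat1, chr19:15925010-15925309, minus strand: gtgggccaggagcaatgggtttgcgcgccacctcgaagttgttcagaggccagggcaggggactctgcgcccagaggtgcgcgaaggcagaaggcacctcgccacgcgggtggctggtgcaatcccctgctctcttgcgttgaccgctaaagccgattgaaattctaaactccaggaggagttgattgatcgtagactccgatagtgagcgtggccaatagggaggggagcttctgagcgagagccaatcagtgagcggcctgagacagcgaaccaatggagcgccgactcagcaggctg
Phgdh, chr3:98339920-98340219, minus strand: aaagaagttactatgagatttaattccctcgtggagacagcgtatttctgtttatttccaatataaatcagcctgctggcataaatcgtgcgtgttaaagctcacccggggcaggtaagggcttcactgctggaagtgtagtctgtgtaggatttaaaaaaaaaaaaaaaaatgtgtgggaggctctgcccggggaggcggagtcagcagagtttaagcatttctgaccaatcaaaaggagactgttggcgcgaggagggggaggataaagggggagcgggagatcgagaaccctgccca
The letters TGATGNAA, searched on both strands, occurred in the window of 1 of 9 genes and in 4.51% of 27025 genes with a window. In Asns they read TGATGAAA and began 23 bases before the start site. The E-box CACGTG was in the windows of 0 of 9 genes and of 8.09% of all genes. The antioxidant response element letters TGACNNNGC were in the windows of Phgdh, Psph and Asns, 3 of 9 genes, and of 14.0% of all genes. A match describes letters in these windows and no more.

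Plod1 transcript checked the labels. It averaged 25.9 ± 1.82 FPKM in saline-treated WT and 25.0 ± 2.76 FPKM in Ang II-treated WT aortas (SD, n = 5), and was at most 0.0415 FPKM in each of the Plod1-/- libraries. Smooth muscle markers summed to between 2297 and 20700 FPKM in every library. Although the methods gave male mice, Xist RNA was found in replicate 5 of the saline-treated mutants, with 15.1 FPKM, and in replicate 1 of the Ang II-treated mutants, with 7.93 FPKM. It was at most 0.0328 FPKM in the other libraries. FPKM sums ranged from 344207 to 437790 per library, the number of sequenced fragments behind them is unknown, and mitochondrially encoded genes took 8.37% to 29.1% of the sum. The closest pair of libraries had a Pearson r of 0.9863 over all genes on the log2(FPKM + 1) scale, and no pair held identical values.

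**Figure D1:**
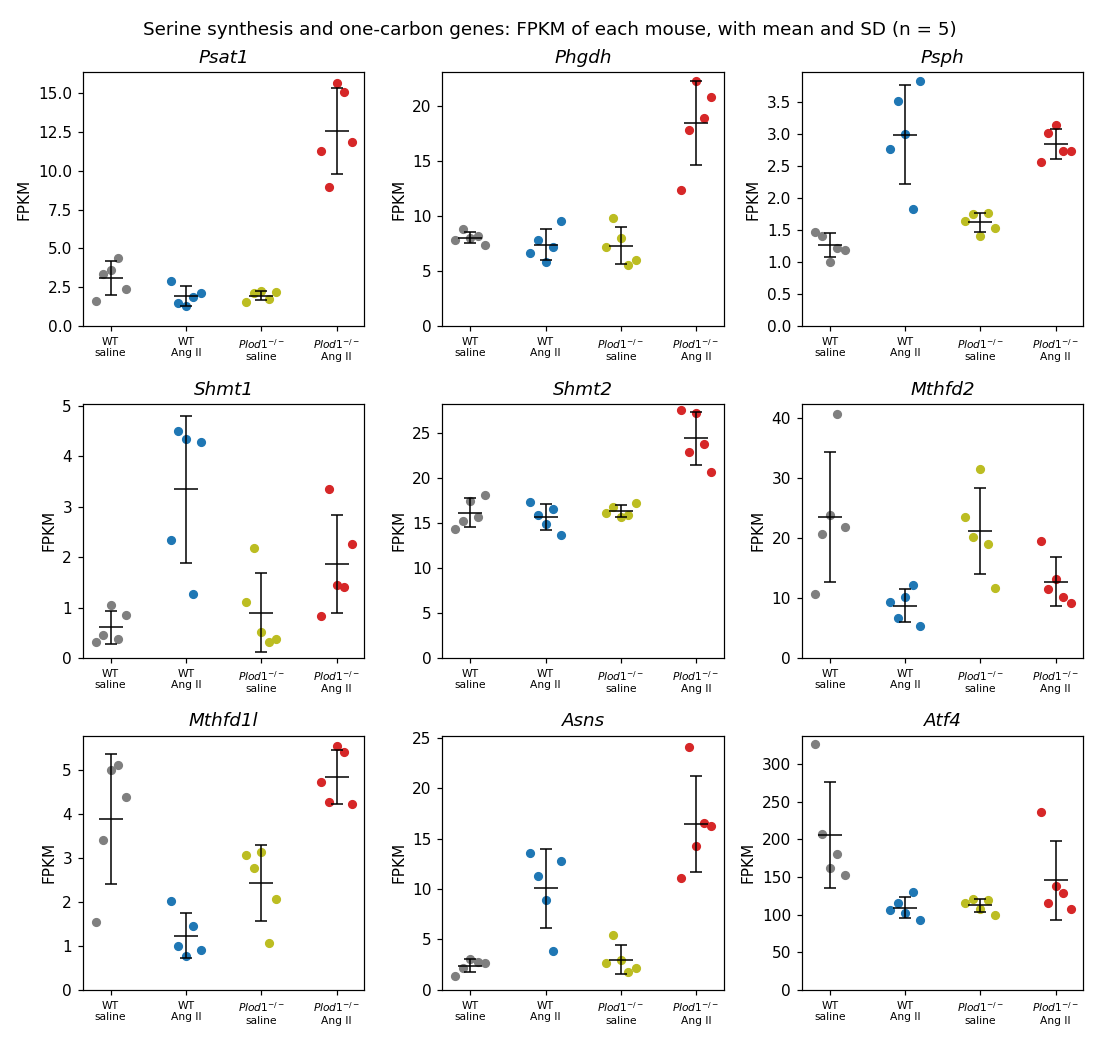
FPKM of the 9 genes in each mouse (points) with mean and SD (bars) in the 4 groups of 5, each panel on its own linear scale from 0. Psat1 lay between 8.93 and 15.6 FPKM in the Ang II-treated Plod1-/- mice and at or below 4.40 FPKM in all others, whereas Asns was high in both Ang II groups and Mthfd2 was high in both saline groups.

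Serine synthesis begins with Phgdh, which encodes the phosphoglycerate dehydrogenase of the committed step (chromosome 3, 98313170 to 98339990 on GRCm38, minus strand). Its FPKM was 7.79, 8.79, 8.04, 8.20 and 7.38 in saline-treated WT mice and 6.68, 7.79, 5.82, 7.18 and 9.56 in Ang II-treated WT mice. Saline-treated Plod1-/- mice had 7.21, 9.83, 8.03, 5.60 and 5.97 FPKM, and Ang II-treated Plod1-/- mice had 12.4, 17.8, 22.3, 18.9 and 20.8 FPKM. Each Ang II-treated Plod1-/- value was above all 15 values of the other groups, which overlapped each other. In Plod1-/- mice Phgdh rose with Ang II, by 1.22 ± 0.18 on the log2(FPKM + 1) scale (SE, limma adjusted p = 0.0004255), from 7.33 ± 1.70 to 18.4 ± 3.80 FPKM (SD). On that scale the change of genes with low FPKM is understated. In WT mice the difference was -0.12 ± 0.12, with an adjusted p of 0.4448.

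Psat1, which encodes phosphoserine aminotransferase (chromosome 19, 15904678 to 15947337, minus strand), was at 1.60, 3.35, 3.63, 4.40 and 2.42 FPKM in saline-treated WT mice. Ang II-treated WT mice had 2.89, 1.47, 1.31, 1.89 and 2.11 FPKM, and saline-treated Plod1-/- mice 1.53, 2.13, 2.25, 1.75 and 2.17 FPKM. In Ang II-treated Plod1-/- mice the values were 11.3, 8.93, 15.6, 15.1 and 11.8 FPKM. The lowest of these was above the highest value of any other group. The ratio of the mean FPKM of Ang II-treated Plod1-/- mice to that of Ang II-treated WT mice was 6.49, and to that of saline-treated Plod1-/- mice 6.38. Since these mice selected Psat1, these are descriptions and carry no test. Under saline, in mice the selection did not use, Psat1 differed by -0.42 ± 0.18 between Plod1-/- and WT (adjusted p = 0.1579, limma), 1.97 ± 0.309 against 3.08 ± 1.09 FPKM, and the ranges overlapped. A pseudogene on the opposite strand, Gm3329, shares 556 bases with Psat1 and was at no more than 0.729 FPKM.

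Psph encodes the phosphatase of the last step (chromosome 5, 129765558 to 129787449, minus strand). It was at 1.47, 1.42, 1.00, 1.22 and 1.20 FPKM in saline-treated WT mice and at 2.77, 3.52, 2.998, 1.83 and 3.83 FPKM in their Ang II-treated counterparts. The mutants had 1.65, 1.76, 1.41, 1.76 and 1.54 FPKM with saline and 2.57, 3.02, 3.14, 2.74 and 2.74 FPKM with Ang II. Psph was thus higher with Ang II than with saline in both genotypes, with no overlap in either. The rise was 0.80 ± 0.14 in WT mice (adjusted p = 0.003106, limma) and 0.55 ± 0.08 in Plod1-/- mice (adjusted p = 0.0004463). After Ang II the mean was 2.99 ± 0.772 FPKM in WT and 2.84 ± 0.235 in Plod1-/- mice. Psph shares 452 bases with Cct6a on the opposite strand, a gene with up to 36.9 FPKM, and the library kit does not keep strand, so part of the Psph signal may be reads of Cct6a.

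The one-carbon unit leaves serine through the serine hydroxymethyltransferases. Shmt1, the cytosolic form (chromosome 11, 60788104 to 60811718, minus strand), was at 0.308, 0.447, 1.05, 0.374 and 0.848 FPKM in saline-treated WT mice and at 2.34, 4.50, 4.33, 1.27 and 4.28 FPKM in Ang II-treated WT mice. The groups did not overlap, and Shmt1 rose by 1.38 ± 0.25 (adjusted p = 0.003106, limma). It reached the filter on low values through the Ang II group, since 1 of 5 saline-treated and 5 of 5 Ang II-treated mice had an FPKM of at least 1. With no filter the adjusted p was 0.01558. Plod1-/- mice had 1.11, 2.19, 0.510, 0.325 and 0.377 FPKM with saline and 0.832, 3.35, 1.45, 1.42 and 2.27 FPKM with Ang II. These groups overlapped, with a difference of 0.61 ± 0.29 and an adjusted p of 0.1075. The adjusted p was 0.02612 without replicate 2 of the saline-treated mutants, which had their highest Shmt1, and 0.04711 without replicate 1 of the Ang II-treated mutants, which had their lowest. Shmt1 overlaps Smcr8 on the opposite strand by 184 bases, and Smcr8 was at no more than 2.94 FPKM, so at these low values the 2 genes cannot be separated with certainty.

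Shmt2, the mitochondrial form (chromosome 10, 127517123 to 127522444, minus strand), was at 14.3, 15.2, 17.4, 15.7 and 18.1 FPKM in saline-treated WT mice and at 17.4, 15.8, 14.9, 16.6 and 13.7 FPKM in Ang II-treated WT mice. Saline-treated Plod1-/- mice had 16.1, 16.7, 15.7, 15.8 and 17.2 FPKM, and Ang II-treated Plod1-/- mice 27.5, 22.8, 27.1, 23.8 and 20.6 FPKM. Only the last group stood apart, above all 15 other values. Shmt2 rose by 0.55 ± 0.10 with Ang II in Plod1-/- mice (adjusted p = 0.001137, limma), which is under the log2 threshold of 1, and differed by -0.04 ± 0.10 in WT mice (adjusted p = 0.7692). The overlap with Ndufa4l2 on the opposite strand is 32 bases.

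Mthfd2 encodes the mitochondrial methylenetetrahydrofolate dehydrogenase and cyclohydrolase (chromosome 6, 83305691 to 83325908, minus strand). It was at 10.7, 20.7, 23.8, 40.6 and 21.8 FPKM in saline-treated WT mice and at 9.30, 6.64, 10.1, 12.2 and 5.26 FPKM in Ang II-treated WT mice. Plod1-/- mice had 23.6, 20.2, 31.5, 18.9 and 11.7 FPKM with saline and 19.5, 11.5, 13.1, 10.1 and 9.25 FPKM with Ang II. Values with Ang II lay towards the lower end in both genotypes, and in both they overlapped those with saline. Mthfd2 fell by 1.27 ± 0.30 in WT mice (adjusted p = 0.009894, limma). In Plod1-/- mice the difference was -0.68 ± 0.25, with an adjusted p of 0.05225. Without the 2 libraries holding Xist RNA it was -1.02, with an adjusted p of 0.001532.

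Mthfd1l encodes the mitochondrial formyltetrahydrofolate synthetase that releases formate (chromosome 10, 3973118 to 4167081, plus strand). Saline-treated WT mice had 1.55, 3.40, 4.996, 5.11 and 4.38 FPKM, and Ang II-treated WT mice 2.01, 1.01, 0.771, 1.45 and 0.912 FPKM. Saline-treated Plod1-/- mice had 3.06, 2.76, 3.13, 1.07 and 2.08 FPKM, and Ang II-treated Plod1-/- mice 4.73, 4.27, 5.54, 5.40 and 4.22 FPKM. In Plod1-/- mice the Ang II values were above all the saline values, and in WT mice all but 1 of the Ang II values were below all of them. Mthfd1l fell by 1.09 ± 0.24 in WT mice (adjusted p = 0.007145, limma) and rose by 0.81 ± 0.18 in Plod1-/- mice (adjusted p = 0.005199). Without saline-treated WT replicate 4 the fall in WT mice was 1.00 (adjusted p = 0.02022), just short of the log2 threshold.

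Asns encodes asparagine synthetase, which makes asparagine from aspartate and glutamine (chromosome 6, 7675169 to 7693254, minus strand). It was at 1.34, 2.19, 3.02, 2.72 and 2.64 FPKM in saline-treated WT mice and at 13.6, 11.3, 8.89, 3.81 and 12.8 FPKM in Ang II-treated WT mice. Plod1-/- mice had 2.62, 5.49, 2.99, 1.79 and 2.13 FPKM with saline and 11.1, 24.1, 14.3, 16.5 and 16.3 FPKM with Ang II. In neither genotype did the treated and untreated values overlap. Asns rose by 1.64 ± 0.28 in WT mice (adjusted p = 0.002584, limma) and by 2.15 ± 0.24 in Plod1-/- mice (adjusted p = 0.0001188). The ratios of mean FPKM were 4.23 in WT and 5.48 in Plod1-/- mice.

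Atf4 (chromosome 15, 80255184 to 80257541, plus strand) had the highest FPKM of the 9 genes in each group. Saline-treated WT mice had 326, 206, 162, 180.5 and 153 FPKM, and Ang II-treated WT mice 106, 115, 101, 129 and 92.8 FPKM. Saline-treated Plod1-/- mice had 115, 121, 107, 119 and 99.96 FPKM, and Ang II-treated Plod1-/- mice 237, 115.5, 138, 128.5 and 107 FPKM. Only saline-treated WT mice stood above both the Ang II-treated WT and the saline-treated Plod1-/- mice, with no overlap. Atf4 transcript fell by 0.86 ± 0.20 with Ang II in WT mice (adjusted p = 0.008365, limma), the opposite direction to Asns, and differed by 0.31 ± 0.20 in Plod1-/- mice (adjusted p = 0.23). Without Ang II-treated Plod1-/- replicate 1, the mouse with 237 FPKM, that difference was 0.12 with an adjusted p of 0.4037. These are transcript levels, and ATF4 protein was not measured here.

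**Figure D2:**
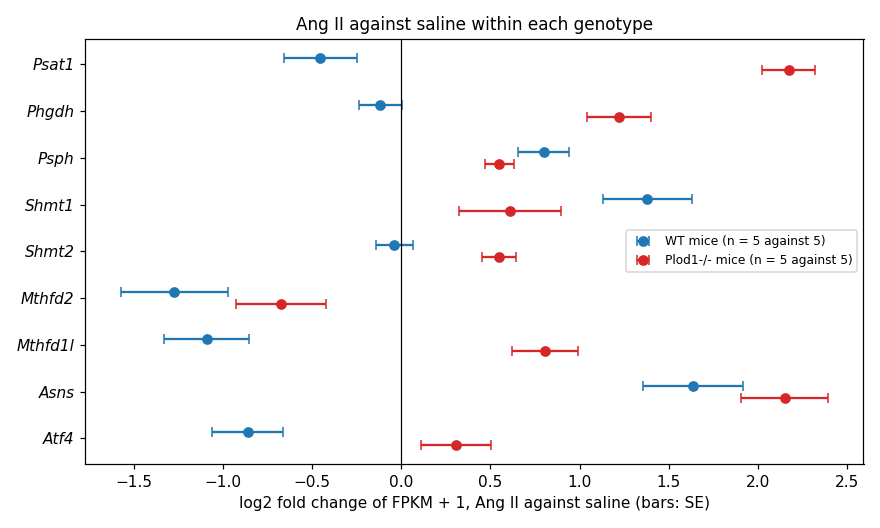
Log2 fold change of FPKM + 1, Ang II against saline, of the 9 genes in WT mice (blue) and Plod1-/- mice (red); points are limma estimates from 5 against 5 mice and bars are SE. Psph, Shmt1 and Asns lie to the right of 0 in both genotypes and Mthfd2 to the left in both, whereas Psat1, Mthfd1l and Atf4 lie on opposite sides of 0.

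A gene was counted as a DEG when its Benjamini-Hochberg adjusted p over all genes tested was below 0.05 and its log2 fold change was above 1 in size. Of the 8 genes beside Psat1, 2 were DEGs with higher levels after Ang II in Plod1-/- mice, Phgdh and Asns, and 0 were DEGs with lower levels. Among all 12333 genes tested, 8.38% and 5.51% were. By adjusted p alone 5 of the 8 rose, namely Phgdh, Psph, Shmt2, Mthfd1l and Asns, and 0 fell, where 23.8% of all genes rose and 20.1% fell. The ranges of 5 of the 8 genes, the same 5, lay wholly above those under saline and none wholly below, against 14.2% and 15.0% of all genes. The median log2 fold change was 0.58 over the 8 genes and 0.05 over all genes. Leaving out the libraries with Xist RNA added Mthfd2 to the DEGs, with lower levels, and dropped none.

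In WT mice the 8 genes divided. With Ang II 2 were DEGs with higher levels, Asns and Shmt1, the latter tested only because of its Ang II values, where 6.38% of 11994 genes were, and 2 were DEGs with lower levels, Mthfd2 and Mthfd1l, where 2.28% of genes were. By adjusted p alone 3 rose and 3 fell, with Psph added to the first and Atf4 to the second, against 16.5% and 21.5% of all genes. Psph, Shmt1 and Asns, 3 of the 8, lay wholly above their saline range, as did 10.4% of all genes, and only Atf4 lay wholly below it, as did 6.88%. The median was -0.08 over the 8 genes and -0.14 over all genes. The 2 treatment comparisons have no mouse in common, but each shares a group with the contrast that selected Psat1.

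Between the genotypes under Ang II, the contrast that selected Psat1, the values are given without a test. Psat1 was higher in the mutants by 2.21 ± 0.18 (log2, SE), Mthfd1l by 1.41 ± 0.16, Phgdh by 1.20 ± 0.17 and Shmt2 by 0.60 ± 0.12. Beside Psat1, whose separation the selection fixed, the ranges of Phgdh, Shmt2 and Mthfd1l did not overlap, with all 5 mutant mice above all 5 WT mice, and those of 0 genes lay wholly below. Over all 12356 genes the shares were 10.4% and 4.62%. Phgdh and Mthfd1l, 2 of the 8, were past both DEG thresholds with higher levels and 0 with lower levels, and 7.45% and 3.67% of all genes were. Nothing is read from these counts, since the contrast was used in the selection. For the remaining genes the differences were 0.72 ± 0.30 for Asns, 0.50 ± 0.24 for Mthfd2, 0.36 ± 0.21 for Atf4, -0.03 ± 0.15 for Psph and -0.59 ± 0.30 for Shmt1, with ranges that overlapped.

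The response to Ang II was also compared between the genotypes as the difference of the 2 fold changes, which contains the selecting contrast and is likewise a description. It was 2.63 ± 0.26 for Psat1, 1.90 ± 0.32 for Mthfd1l, 1.34 ± 0.22 for Phgdh, 1.17 ± 0.29 for Atf4, 0.60 ± 0.42 for Mthfd2, 0.59 ± 0.13 for Shmt2 and 0.51 ± 0.39 for Asns. It was -0.25 ± 0.17 for Psph and -0.77 ± 0.40 for Shmt1. Beside Psat1, 3 of the 8 genes, Mthfd1l, Phgdh and Atf4, were past both thresholds with a positive difference and 0 with a negative one, where 9.69% and 6.36% of 13263 genes were, and nothing is read from that count either. Atf4 was no longer past them without saline-treated WT replicate 1 or without Ang II-treated Plod1-/- replicate 1.

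**Figure D3:**
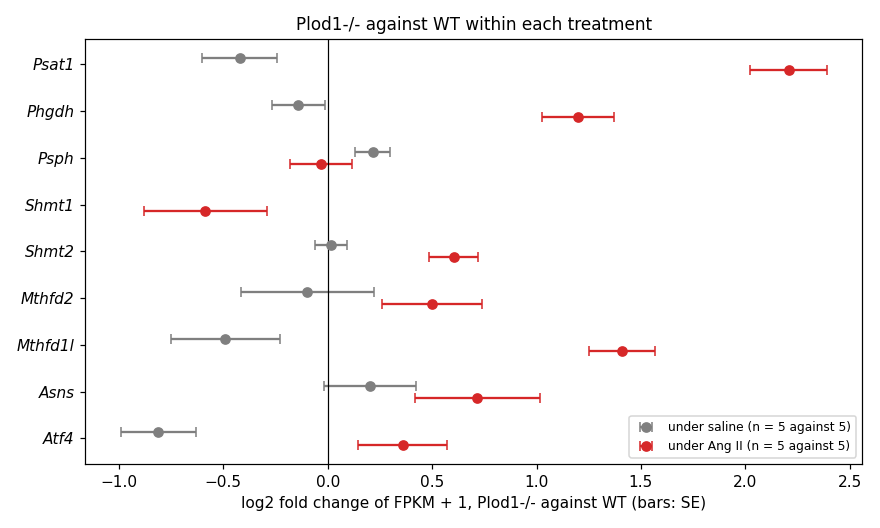
Log2 fold change of FPKM + 1, Plod1-/- against WT, under saline (grey) and under Ang II (red); points are limma estimates from 5 against 5 mice and bars are SE. Shmt1 has no grey point since it was too low to be fitted under saline. Under Ang II Psat1, Phgdh and Mthfd1l lie above 1, and under saline Atf4 lies furthest from 0, at -0.81.

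Under saline, 0 of the 8 genes that passed the filter on low values were DEGs in either direction in limma, where 0.358% of 11999 genes were with higher and 0.408% with lower levels in Plod1-/- mice. By unadjusted p below 0.05 there were 3, with Psph higher and Atf4 and Psat1 lower, against 12.7% of all genes higher and 14.4% lower. By adjusted p alone 0 were higher and 1, Atf4, was lower, against 3.33% and 3.23% of all genes. The Atf4 difference was -0.81 ± 0.18 (adjusted p = 0.03203), 112 ± 8.72 against 206 ± 70.4 FPKM. It was also the single gene of the 9 whose ranges did not overlap, with the mutants lower, and 0 had the mutants higher, against 5.30% and 4.22% of all genes. Leaving out 1 mouse at a time moved the adjusted p between 0.0172 and 0.0695, and it was above 0.05 without saline-treated WT replicate 2 or 4 or without mutant replicate 2, 3, 4 or 5. The Psat1 difference had an adjusted p of 0.0417 without saline-treated WT replicate 1. For the others the difference was 0.22 ± 0.08 for Psph (adjusted p = 0.1278), 0.20 ± 0.22 for Asns (0.5799), 0.02 ± 0.08 for Shmt2 (0.9047), -0.10 ± 0.32 for Mthfd2 (0.8656), -0.14 ± 0.13 for Phgdh (0.5012) and -0.49 ± 0.26 for Mthfd1l (0.2489). Shmt1 did not pass the filter and differed by 0.18 in an exact permutation test (two-sided p = 0.492, with 0.00794 the smallest possible).

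The order of the levels, per kilobase and so comparable between genes, differed between groups. Below Atf4 came Mthfd2 and Shmt2 under saline in both genotypes, with overlapping ranges, then Phgdh, which overlapped neither neighbour. In Ang II-treated WT mice the order was Shmt2, then Asns, Mthfd2 and Phgdh, where the last 3 overlapped in sequence, and Mthfd1l came last at 1.23 ± 0.505 FPKM. In Ang II-treated Plod1-/- mice Shmt2, Phgdh, Asns, Mthfd2 and Psat1 followed each other with overlapping ranges between 24.4 and 12.55 FPKM in the mean, and a gap without overlap separated them from Mthfd1l at 4.83 ± 0.617 FPKM. Psat1 stood 6th of 9 in the mean in that group. Shmt1 was the lowest gene in all groups but Ang II-treated WT.

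Cell type markers moved with these genes, and since the libraries came from whole tissue, more cells of a type and more RNA per cell cannot be told apart. The summed FPKM of 8 macrophage markers, lowest, median and highest mouse, was 199, 260 and 375 in saline-treated WT, 302.5, 451 and 1776 in Ang II-treated WT, 91.2, 188 and 379 in saline-treated Plod1-/- and 864, 2761 and 4776 in Ang II-treated Plod1-/- mice. All 8 macrophage markers were DEGs with higher levels in Ang II-treated Plod1-/- mice against each of the other groups compared with it, and 1 of 8 after Ang II in WT mice. The shares of all genes were 7.45% against Ang II-treated WT mice, 8.38% against saline-treated Plod1-/- mice and 6.38% after Ang II in WT mice. None of the 8 was at 0 in any library. The 6 proliferation markers summed to 9.91, 43.5 and 63.7 FPKM in Ang II-treated Plod1-/- mice and to at most 5.96 FPKM elsewhere. With Ang II in Plod1-/- mice 6 of 6 smooth muscle markers were DEGs with lower levels, and 3 of 6 fibroblast, 4 of 4 tested neutrophil and 5 of 5 red cell markers with higher levels. Over all genes 5.51% were DEGs with lower and 8.38% with higher levels. With saline Retnlg and Csf3r were at most 0.277 and 0.623 FPKM, and S100a8 and S100a9 at most 1.02 and 1.41 FPKM. The neutrophil markers thus reached the filter largely through the Ang II group, and their count is not read as a result. The summed smooth muscle markers, lowest, median and highest mouse, went from 15030, 19180 and 20700 to 2297, 4200 and 16760 FPKM, the fibroblast markers from 384, 501 and 615 to 1083, 2231 and 6639 FPKM, the neutrophil markers from 1.26, 2.29 and 2.93 to 154, 306 and 708.5 FPKM, and the red cell markers from 60.02, 132 and 1523 to 763, 2394 and 9716 FPKM. The fibroblast markers did not move alike. Means in Plod1-/- mice with saline and with Ang II were 96.9 and 1217 FPKM for Col1a1, 111 and 551 for Col1a2, and 82.8 and 830 for Col3a1. They were 54.2 and 109 FPKM for Lum, 5.34 and 9.17 for Pdgfra, and 154 and 137 for Dcn. Ly6g, a defining neutrophil marker, was at 0.280 FPKM or less in each of the treated mutants. In that group replicate 1 had the lowest macrophage sum, 864 FPKM, and a smooth muscle sum of 16760 FPKM against at most 6161 in the other 4, with the lowest Phgdh, 12.4 FPKM, a Psat1 of 11.3 FPKM and the highest Shmt2, 27.5 FPKM. Replicates 3 and 4 of the treated mutants had the highest macrophage sums, 4776 and 4466 FPKM. They also had the highest Psat1, 15.6 and 15.1 FPKM, and Mthfd1l, 5.54 and 5.40 FPKM. Their Phgdh was 22.3 and 18.9 FPKM and their Shmt2 27.1 and 23.8 FPKM. In Ang II-treated WT mice replicate 1 had the highest macrophage sum, 1776 FPKM, above that of mutant replicate 1. It had 2.89 FPKM of Psat1, the highest of its group, and 6.68 FPKM of Phgdh. The part of these cell types and of cell division in the Psat1, Phgdh, Shmt2 and Mthfd1l values was not tested.

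Fat markers moved with Shmt1, and with Asns within some groups. The 6 adipocyte markers, none of them at 0 in any library and among them the brown fat gene Ucp1, summed to 82.2, 95.5 and 491 FPKM (lowest, median and highest mouse) in saline-treated WT, 779, 3405 and 4601 in Ang II-treated WT, 126.5, 326.5 and 1595 in saline-treated Plod1-/- and 455, 1089 and 2776 FPKM in Ang II-treated Plod1-/- mice. All 6 were DEGs with higher levels after Ang II in WT and 2 of 6 in Plod1-/- mice, beside 6.38% and 8.38% of all genes. Of the skeletal muscle markers, 2 of 4 tested were DEGs with higher levels after Ang II in WT mice and 0 of 3 in Plod1-/- mice, beside the same shares. In WT mice Acta1 averaged 1.05 FPKM with saline and 67.5 FPKM with Ang II, and Tcap 332 and 235 FPKM. Ang II-treated WT replicate 4, with the lowest sum of its group, had the lowest Shmt1, Asns and Psph of that group, at 1.27, 3.81 and 1.83 FPKM. Within each of the Plod1-/- groups replicate 2 had the highest sum and the highest Shmt1 and Asns. Between the Ang II-treated genotypes the mean of Asns was 16.5 FPKM in Plod1-/- and 10.1 FPKM in WT mice. Of the adipocyte markers 0 of 6 were DEGs with higher and 2 with lower levels in Plod1-/- mice, beside 7.45% and 3.67% of all genes. The 6 did not move alike. Means in Plod1-/- and WT mice were 270.5 and 274 FPKM for Adipoq, 304 and 325 for Cidec, and 584 and 920 for Fabp4. They were 50.3 and 136 FPKM for Plin1, 22.7 and 294 for Cox7a1, and 94.8 and 1192 for Ucp1. The part of adipose tissue and of skeletal muscle in the Shmt1 and Asns differences was not tested.

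**Figure D4:**
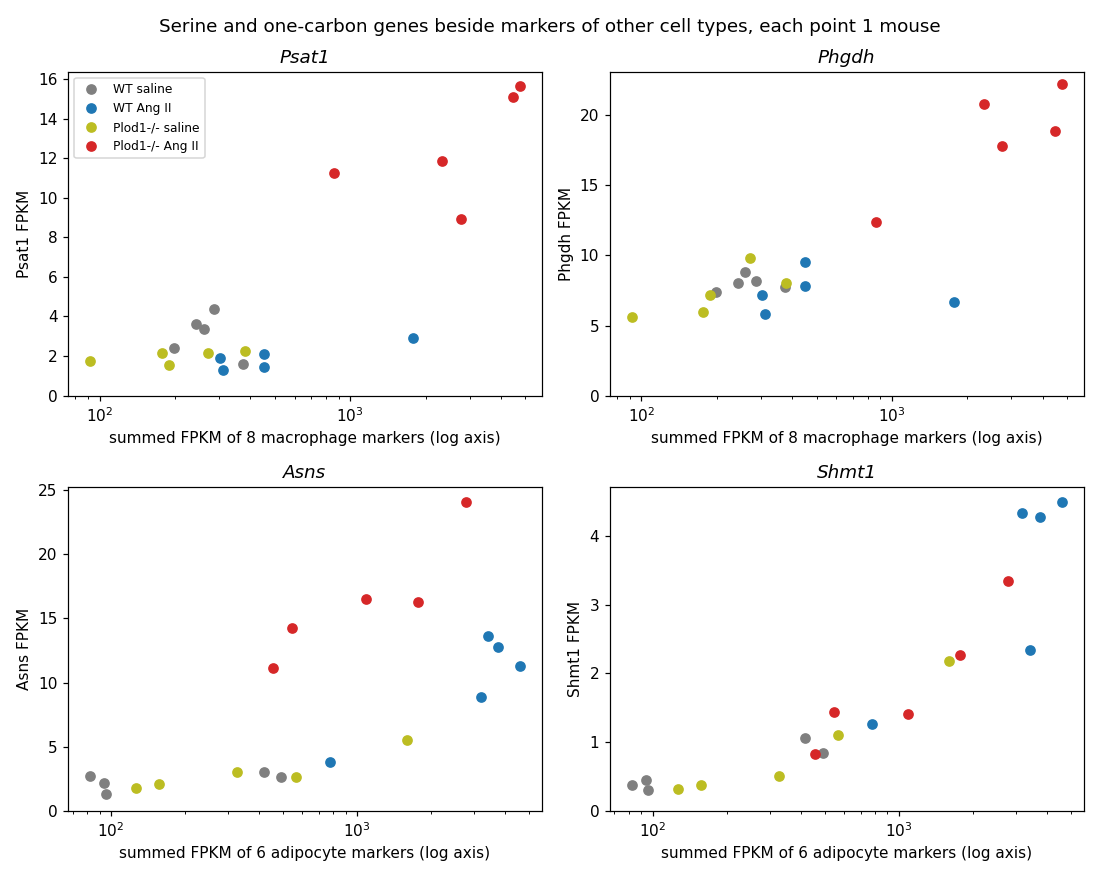
Psat1 and Phgdh FPKM against the summed FPKM of 8 macrophage markers, and Asns and Shmt1 FPKM against that of 6 adipocyte markers, with log horizontal axes; each point is 1 mouse, coloured by group. Ang II-treated WT replicate 1, at a macrophage sum of 1776 FPKM, has 2.89 FPKM of Psat1, the highest of its group. The Ang II-treated Plod1-/- mice have 8.93 FPKM or more at sums from 864 to 4776 FPKM, with the highest Psat1 at the highest sum.

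The neighbouring pathways were read from 9 lists with 106 genes, of which 92 were tested in Plod1-/- mice. After Ang II in Plod1-/- mice 6 were DEGs with higher and 5 with lower levels, where 8.38% and 5.51% of all genes were, and by adjusted p alone 35 rose and 13 fell, where 23.8% and 20.1% did. Their median log2 fold change was 0.26. In WT mice 91 were tested. DEGs numbered 5 with higher and 4 with lower levels, against 6.38% and 2.28% of all genes. By adjusted p alone 18 rose and 22 fell, against 16.5% and 21.5%, and the median was -0.16. The aminoacyl-tRNA synthetases, many of which ATF4 is known to induce, were all tested. In Plod1-/- mice 9 of 12 rose by adjusted p and 0 fell, beside 23.8% and 20.1% of all genes. In WT mice 0 rose and 4 fell, beside 16.5% and 21.5%. The difference of the responses was positive with an adjusted p below 0.05 for 9 of 12 and negative for 0, beside 23.8% and 14.1% of all genes. Nothing is read from that count, since the difference contains the contrast that selected Psat1. Gars, the glycyl-tRNA synthetase chosen here after its values were seen, averaged 26.3 ± 2.83 FPKM with saline and 51.8 ± 3.41 FPKM with Ang II in Plod1-/- mice. As descriptions, the difference of the responses was 1.08 ± 0.14 for Tars, the threonyl-tRNA synthetase, and 1.06 ± 0.17 for Cars, the cysteinyl-tRNA synthetase. It was 1.03 ± 0.14 for Eif2s1, which encodes the alpha subunit of eIF2.

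Of 20 stress genes linked to ATF4, 19 were tested. After Ang II in Plod1-/- mice 4 were DEGs with higher and 2 with lower levels, beside 8.38% and 5.51% of all genes, and by adjusted p alone 11 rose and 3 fell, beside 23.8% and 20.1%. Cebpb, a bZIP factor that pairs with ATF4, rose by 2.84 ± 0.40 (adjusted p = 0.0003615, limma), from 4.54 ± 1.66 to 42.8 ± 24.5 FPKM. Gdf15, a secreted stress cytokine, rose by 1.65 ± 0.27 (adjusted p = 0.0008868). Aldh18a1, the first enzyme of proline synthesis from glutamate, rose by 1.29 ± 0.17 (adjusted p = 0.0002916), from 6.78 ± 0.346 to 18.6 ± 5.18 FPKM. Stc2, the secreted glycoprotein stanniocalcin 2, fell by 1.60 ± 0.19 (adjusted p = 0.0001476). In WT mice 0 were DEGs with higher and 2 with lower levels, beside 6.38% and 2.28% of all genes, and 5 rose and 4 fell by adjusted p alone, beside 16.5% and 21.5%. Ppp1r15a, the eIF2 phosphatase subunit, fell by 1.20 ± 0.23 (adjusted p = 0.004417).

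Between the Ang II-treated genotypes 92 of the listed genes were tested. DEGs numbered 7 with higher and 1 with lower levels in Plod1-/- mice, beside 7.45% and 3.67% of all genes. By adjusted p alone 33 were higher and 7 lower, beside 20.8% and 10.4%. Since this contrast selected Psat1, nothing is read from these counts, and its differences are given without a p. Aldh18a1 was higher by 1.57 ± 0.24, and Pycr1, the enzyme that completes proline, by 1.14 ± 0.26. Slc7a5, the light chain of the large neutral amino acid transporter, was higher by 1.42 ± 0.24. In WT mice Slc7a5 fell by 1.17 ± 0.22 with Ang II (adjusted p = 0.003783, limma). Tyms, the thymidylate synthase that consumes methylene-folate, was at 3.87 ± 1.54 FPKM in Ang II-treated Plod1-/- mice and at most 1.23 FPKM in any Ang II-treated WT mouse, and entered the fit through the mutants alone, so no test is given. Sptlc2, which joins serine to palmitoyl-CoA in sphingolipid synthesis, was higher by 1.05 ± 0.22.

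In WT mice the largest rises with Ang II among the listed genes belonged to other branches. Aldh1l1, the cytosolic formyltetrahydrofolate dehydrogenase, rose by 2.44 ± 0.52 (adjusted p = 0.006069, limma), from 2.02 ± 0.839 to 21.6 ± 23.1 FPKM. In Plod1-/- mice the Aldh1l1 difference was 1.57 ± 0.59 (adjusted p = 0.05216). Sdsl, a serine dehydratase-like gene, rose in WT mice by 2.35 ± 0.33 (adjusted p = 0.001807). Dld, the dehydrogenase shared by glycine cleavage and pyruvate dehydrogenase, rose by 1.55 ± 0.23 (adjusted p = 0.001807, limma). Serinc2, a serine incorporator family gene, was higher with Ang II by 1.59 ± 0.20. Under saline 91 of the listed genes were tested between genotypes. DEGs numbered 2 with higher levels in Plod1-/- mice, Serinc2 and Sdsl, and 0 with lower levels, beside 0.358% and 0.408% of all genes. Serinc2 was at 4.95 ± 0.824 FPKM in Plod1-/- against 0.514 ± 0.180 FPKM in WT mice (1.97 ± 0.12). It entered both of its fits through the group where it was higher, since 0 of 5 saline-treated WT mice had an FPKM of at least 1. No p is therefore given for Serinc2. In the Plod1-/- mice Amt, the aminomethyltransferase of glycine cleavage, fell by 1.14 ± 0.16 with Ang II (adjusted p = 0.0003874).

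**Figure D5:**
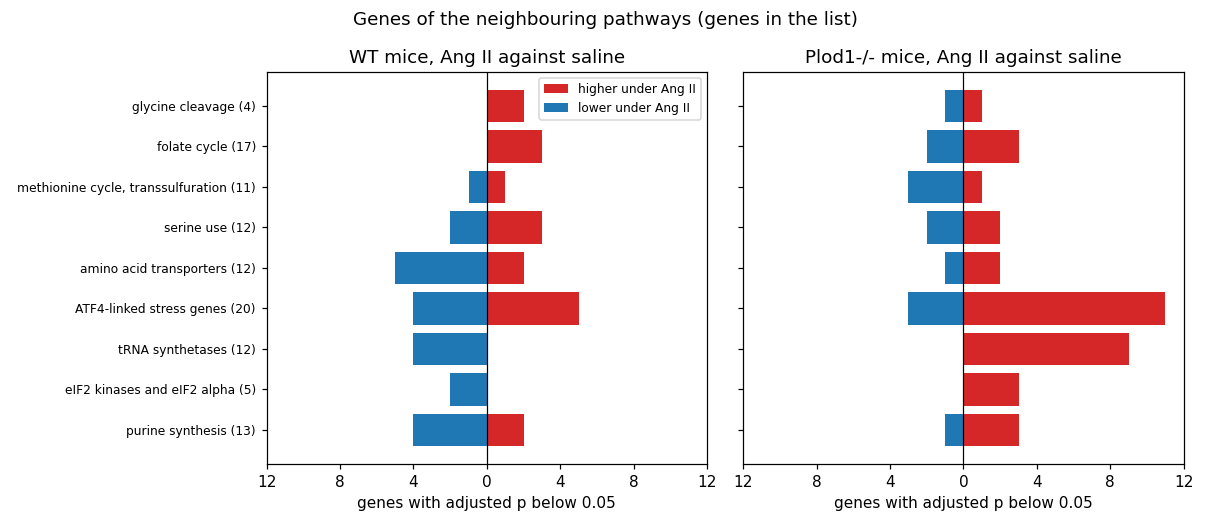
Number of genes with an adjusted p below 0.05 that were higher (red, right) or lower (blue, left) after Ang II in WT mice and in Plod1-/- mice, by list, with the number of genes in the list in brackets. The aminoacyl-tRNA synthetases have 0 higher and 4 lower in WT mice and 9 higher and 0 lower in Plod1-/- mice.

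The genes most like Psat1 were found by the root mean square distance between standardised log2(FPKM + 1) profiles over the 20 mice, a description in which the step of the Ang II-treated Plod1-/- group dominates. Nearest of 13262 genes were Alg8, an N-glycan glucosyltransferase, at 0.247 and Dnajc2, a ribosome-associated chaperone, at 0.256, followed by Tmsb10, Rbms1, Tnfrsf23, Cnot9, Tmem97, Tmem167, Fkbp11 and Slc10a3, at 0.279 to 0.296. Alg8 averaged 6.47 FPKM in Ang II-treated Plod1-/- mice and 1.89 to 2.41 FPKM in the other groups. Of the pathway genes Phgdh ranked 177th at 0.427 and Shmt2 294th at 0.463. Mthfd1l ranked 1613th, Asns 2755th, Psph 4984th, Atf4 6461st, Shmt1 7305th and Mthfd2 7745th. With the group means removed, so that only differences between mice of a group counted, Mthfd1l came 89th, and Phgdh and Shmt2 fell back to 3261st and 2969th.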

How the data were processed

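RNA of 20 abdominal aortas was sequenced from kits that do not keep strand (TruSeq RNA V2). Per the study's methods the authors removed ribosomal reads, aligned with HISAT2, assembled with StringTie and computed FPKM with cuffquant and cuffnorm. The submitters' processing notes name Bowtie2 2.2.3, HISAT2 2.1.0, HTSeq 0.6.0 and mm10, and the annotation release is not given in the sources used here. The deposited values are FPKM for 43422 Ensembl genes, of which 43226 matched a symbol. FPKM are not counts, so the edgeR test the study names was replaced by limma 3.58.1 in R 4.3.3, with a variance trend, on log2(FPKM + 1), over genes reaching an FPKM of 1 in 5 or more of the mice compared. p-values were two-sided and adjusted by Benjamini-Hochberg over all genes tested. The scripts were tested on simulated data. cuffnorm rescales libraries to each other, and where a few abundant genes take a changing share, the FPKM of all others shift.

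The labels put 5 mice in each group, and p-values measure the spread between these mice. The replicate numbers were not used to pair them in the main test. Members and lists were chosen with earlier results of these data known. Every member was named. For each list and comparison up to 4 DEGs with the largest log2 fold change could be named, with the 10 genes nearest to Psat1, Plod1 and the cell type markers. Because Psat1 was chosen from the comparison of the Ang II-treated genotypes, the 9 genes and the listed genes carry no p there. Nor do they in the difference of responses, and for Psat1 a p is given only under saline. Alternatives were a pseudocount of 0.1, no filter, a replicate block, no variance trend, weights per mouse, quantile normalization, mitochondrial genes removed, all groups in one fit, adjusted p alone, both libraries with Xist RNA left out, and each mouse left out in turn. Promoter windows came from RefSeq on GRCm38.p6 and gene positions from GENCODE on GRCm38.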

Additional observations from a re-analysis of the deposited data

Results flagged for a closer look

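Atf4 in Ang II-treated Plod1-/- replicate 1 was at 236.7 FPKM, further from the other 4 mice of its group than Dixon's test allows. It was the only such value among 36 sets of 5 mice (9 genes in 4 groups), and chance gives about 1 in 20. The same library held Xist RNA and the highest smooth muscle and lowest macrophage marker sums of its group.

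The response of Psat1 to Ang II differed between the genotypes by 2.628 on the log2 scale, and that of Mthfd1l by 1.899. For both genes all 5 mutants given Ang II were above the mean of the saline-treated mutants, and all 5 WT mice given Ang II were below the mean of the saline-treated WT mice. These differences were not tested, since they contain the contrast that selected Psat1.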

How the results depend on the processing

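In these counts of the 9 genes Psat1 is included. By adjusted p alone, the number of the 9 genes past the threshold went from 3 to 6 for Ang II in Plod1-/- mice and from 0 to 1 for genotype under saline. Over all genes it went from 1714 to 5408 of 12333 and from 92 to 786 of 11999. That of the listed pathway genes went from 8 to 40 between the Ang II-treated genotypes, from 11 to 48 and from 9 to 40 for Ang II in Plod1-/- and in WT mice, from 2 to 8 under saline and from 15 to 46 for the difference of responses, because the fold threshold was dropped. For the Ang II-treated genotypes the number over all genes went from 1373 to 3849 of 12356. It went from 1039 to 4560 of 11994 for Ang II in WT mice and from 2129 to 5017 of 13263 for the difference of responses. The number of the 9 genes past both thresholds otherwise stayed within 1.5 times. Leaving out 1 mouse gave 3 to 4 for Ang II in WT mice and for the difference of responses. The replicate block gave 3, 3, 4, 0 and 4 genes, as without it, for the Ang II-treated genotypes, Ang II in Plod1-/- mice, Ang II in WT mice, genotype under saline and the difference of responses. Same-numbered mice deviated together in at most 2 of 5 pairs per comparison (correlations from -0.332 to 0.421). No consistent pairing by number was seen, and so few pairs could not exclude one. Differences close to 0 changed sign. Shmt2 after Ang II in WT mice ranged from -0.08 to 0.005 with 1 mouse left out. Under saline Shmt2 ranged from -0.023 to 0.056 and Mthfd2 from -0.336 to 0.122. With weights per mouse Shmt2 under saline was -0.025, and with both Xist libraries out Shmt2 was -0.001 and Mthfd2 0.087. With a pseudocount of 0.1 Mthfd1l in Plod1-/- mice (1.05, adjusted p = 0.008284, limma) and Psph in WT mice (1.15, adjusted p = 0.00301) became DEGs. Under saline the adjusted p of Atf4 lay between 0.0172 and 0.0996 over all alternatives and that of Psat1 between 0.0417 and 0.337, and that of Mthfd2 for Ang II in Plod1-/- mice between 0.001532 and 0.1195. The cause of these shifts was not tested. Depth is unknown, so no counting error could be given.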

Other observations

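Among the folate and transport genes that did not reach the filter on low values, Aldh1l2, the mitochondrial formyltetrahydrofolate dehydrogenase, averaged 1.63 ± 1.20 FPKM (SD, n = 5) in the mutants given Ang II and at most 0.484 FPKM in the other groups. The cystine transporter gene Slc7a11 was at 0.160 to 1.11 FPKM in the former and at no more than 0.0899 FPKM in any other mouse. These genes were singled out after their values were seen and were not tested.

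Chac1 and Trib3 are widely used as readouts of ATF4 activity. Chac1 rose with Ang II in Plod1-/- mice by 1.29 ± 0.22 (adjusted p = 0.001116, limma), and in WT mice its difference was 0.42 ± 0.35 (adjusted p = 0.3454). Trib3 rose in WT mice by 0.88 ± 0.22 (adjusted p = 0.01118), and in Plod1-/- mice its difference was 0.34 ± 0.21 (adjusted p = 0.2038). The differences of these responses between the genotypes, 0.86 ± 0.45 and -0.53 ± 0.31, are given without a test and are not read as a result. Both genes were singled out after their values were seen.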
